A study of Mus musculus with 9 samples.

Results

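High-fat diet was compared with chow in the colon of mice under AOM/DSS across 14506 genes, those with a mean of at least 1 FPKM (a level normalised for gene length and library size) over the 9 libraries of the series, out of 55401 entries in the deposited table. The comparison rests on 6 libraries of wild-type colonic tissue, 3 of mice on chow and 3 of mice on the high-fat diet, and the titles of all 6 carry AOM/DSS. The labels leave the abbreviation open; in this field it names azoxymethane, a carcinogen, given with dextran sulfate sodium, which injures the colon lining. A berberine group, whose diet and exposure to AOM/DSS the labels do not state, gave the other 3 libraries of the fit, which served there to estimate the spread between libraries. The labels give no composition of the diet and no age, sex or time point. They do not say whether tumours or the tissue beside them were taken, or whether each library came from its own animal, so that the p-values measure the spread between these libraries, which may be technical. The 6 libraries held 54939852 to 68779070 estimated counts, at about 4 counts a fragment, and 4.70% to 9.41% of the counts were mitochondrial.

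The lining of the colon is renewed from stem cells at the base of its crypts, where Wnt ligands keep cells dividing through beta-catenin, and Notch, BMP and EGF signals set how far each cell goes towards a mature type. Absorptive colonocytes take up salt, water and short-chain fatty acids and carry many enzymes that oxidise and conjugate foreign compounds, goblet cells secrete mucus, and enteroendocrine cells release hormones. Several inhibitors of the Wnt pathway are themselves Wnt target genes, so that a high level of the inhibitor transcripts usually accompanies an active pathway.

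In the high-fat diet libraries, Wnt feedback inhibitors, ribosome assembly factors, proteasome subunits, Sox factors and genes of regenerating epithelium included many members that rose, and transporters and channels, mucus genes, cytochromes P450, conjugating enzymes and nuclear receptors many that fell. By edgeR, 4597 of the 14506 genes changed (31.7%), 2194 upward (15.1%) and 2403 downward (16.6%), and 2454 (16.9%) changed by at least 2-fold. A gene is said to have risen, fallen or changed where its Benjamini-Hochberg adjusted p over all tested genes was under 0.05. Each count of list members below is to be read beside the shares over all tested genes, 15.1% upward and 16.6% downward. Levels are in CPM (counts scaled to each library's total in tested genes and by TMM, not by gene length), given either for replicates 1, 2 and 3 in that order or as mean ± SD (n = 3), and log2 fold changes of high-fat diet over chow are given ± SE. With library totals alone as the scaling, 2805 genes rose and 1876 fell, so that 59.9% of the calls were upward against 47.7% with TMM scaling, and the median of all log2 fold changes moved from 0.00 to 0.13. The balance of calls depended on the size of the change. Among genes changed by at least 2-fold, 974 rose (6.71% of all tested) and 1480 fell (10.2%), whereas 237 rose and 159 fell by at least 8-fold, and 82 rose and 24 fell by at least 64-fold.

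The share of genes called also varied with their level. Of 2284 genes under 2 FPKM, 6.83% rose and 18.6% fell. Between 10 and 50 FPKM, 19.9% of 4138 genes rose and 17.2% fell. Of the 227 genes at 200 FPKM or more, 20 rose and 45 fell. These classes use the mean over the 6 chow and high-fat diet libraries, whereas the filter for testing used the mean over all 9 libraries. A gene under 1 FPKM over those 6 was thus tested only where the berberine libraries were higher, which selects genes of the lowest class. The part of this selection in the balance of that class was not tested. Of the 2194 genes that rose, 314 averaged under 1 FPKM over the 6 chow and berberine libraries. These 314 thus entered the test only through the high-fat diet libraries, where they had to be higher. The plot of fold change against level shows the spread of these changes. At 0 in every chow library were 34 of the genes that rose, and at 0 in every high-fat diet library were 7 of those that fell.

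**Figure D1:**
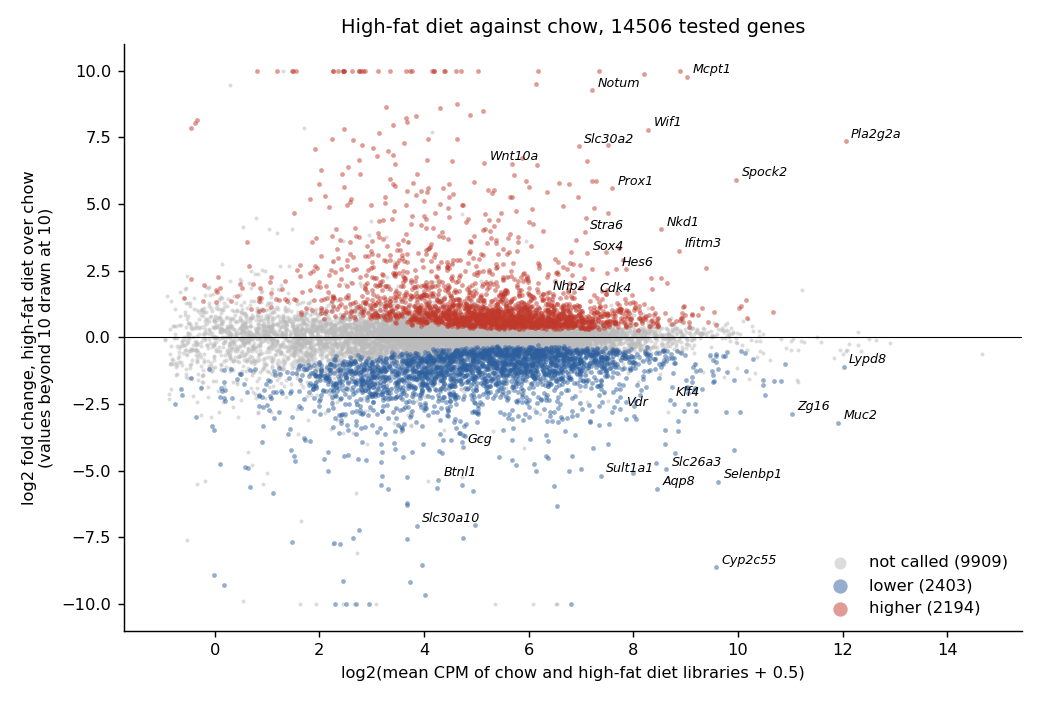
Each point is 1 of 14506 tested genes, placed by the log2 of its mean CPM over the 6 chow and high-fat diet libraries plus 0.5 (x axis) and its log2 fold change of high-fat diet over chow (y axis, values beyond 10 drawn at 10), with genes that rose and genes that fell in separate colours. Changes above 6 on the log2 scale (64-fold) were seen for 82 genes that rose, and those below -6 for 24 that fell.

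Marker genes of the colon were present in every library. Epcam, the general epithelial adhesion protein, stood at 1853, 1888 and 1777 CPM in the chow libraries and 1609, 1782 and 1922 CPM in the high-fat diet libraries. Vil1, the actin bundler of the brush border, stood at 594, 673 and 452 CPM in the chow libraries and 301, 522 and 376 CPM in the high-fat diet libraries. Neither passed the test. Of 11 tested colon identity genes, 6 fell and 0 rose, where 16.6% of all tested genes fell and 15.1% rose. Cdx2, the intestinal master factor, went from 214 ± 116 to 39.2 ± 0.725 CPM. Summed over each list's members, the level of absorptive colonocyte genes was 2476 to 4127 CPM in the high-fat diet libraries and 10084 to 13239 CPM in the chow libraries, and that of goblet cell genes was 1102 to 6869 CPM in the high-fat diet libraries and 10654 to 32201 CPM in the chow libraries. The sum of mast cell genes was 335 to 4978 CPM in the high-fat diet libraries and 66.5 to 134 CPM in the chow libraries, with high-fat diet replicate 1 the highest. That of smooth muscle genes was 1667 to 7866 CPM in the high-fat diet libraries and 10022 to 14089 CPM in the chow libraries, with high-fat diet replicate 3 the highest of its group. The sum of striated muscle genes was 1596 CPM in chow replicate 3 and at most 55.2 CPM in the other 5 libraries, while that of squamous epithelium was 344 CPM in chow replicate 1, 10.1 and 19.8 CPM in the other chow libraries and 165, 173 and 79.5 CPM in the high-fat diet libraries. Of its 8 tested markers 1 rose, and 4 did without chow replicate 1. Proximal colon genes summed to 2331, 5094 and 1942 CPM in the chow libraries and to 169.7, 129 and 65.6 CPM in the high-fat diet libraries, far below every chow library. Of 7 tested proximal markers 6 fell, with a median log2 fold change of -4.01, and without chow replicates 2 and 3 the number was again 6 (median -4.09). In bulk tissue, fewer cells of a type and less RNA per cell cannot be told apart, and the parts of tissue composition and of the colon region sampled in the results below were not tested. Without chow replicates 2 and 3, a setting chosen after these sums were seen that leaves 1 chow library, 1962 genes were called and 1839 of them were among the 4597, all in the same direction. In it 9 of 14 Wnt feedback inhibitors and 15 of 50 ribosome biogenesis factors rose (10 and 41 with all libraries), 28 of 52 conjugating enzymes and 21 of 42 genes of ion and water transport fell (39 and 24 with all libraries), and 2 of 48 proteasome subunits rose (32 with all libraries).

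**Figure D2:**
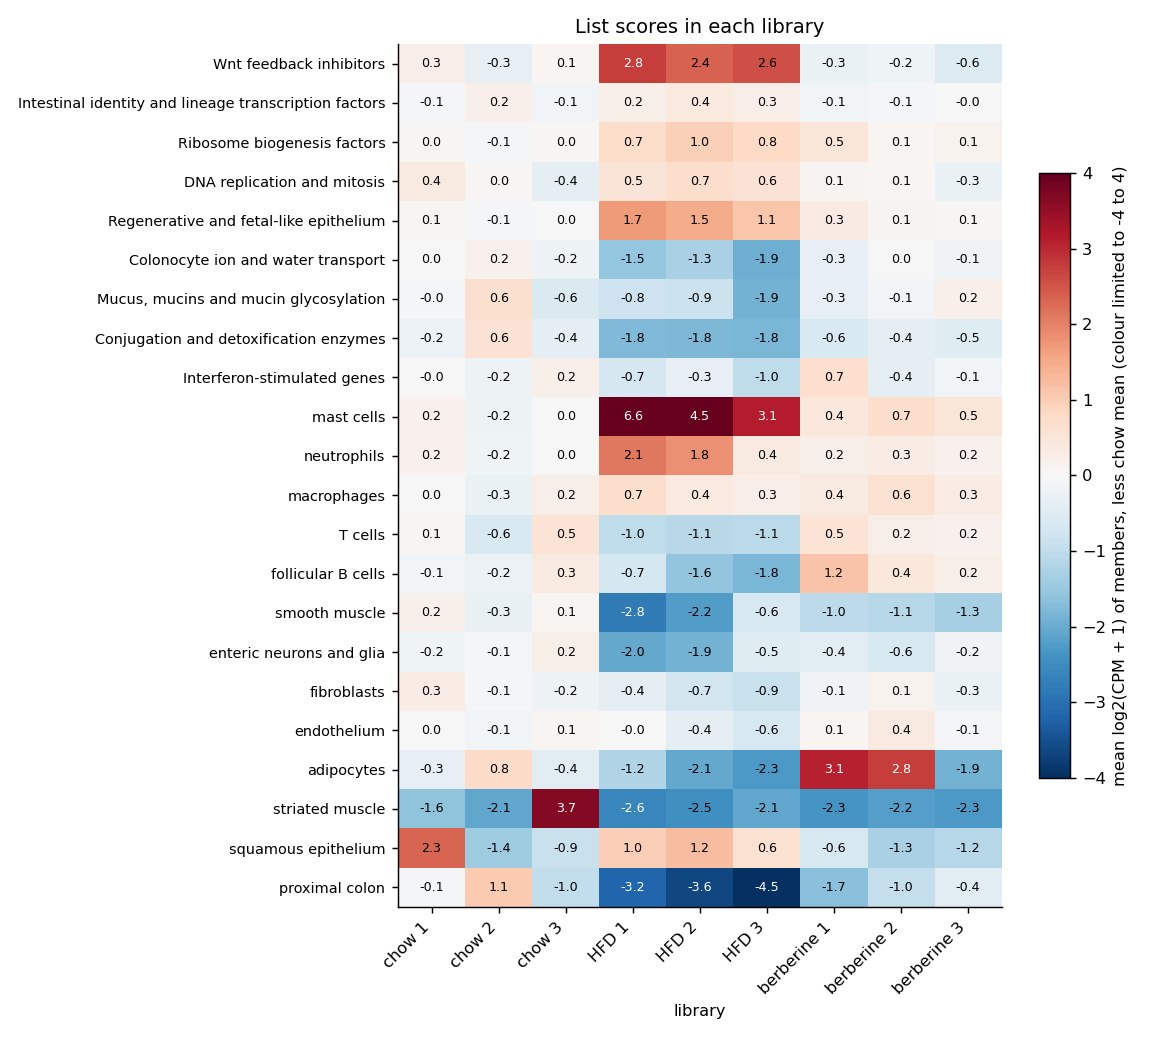
Scores of gene lists (rows) in each library (columns), where a score is the mean over the tested members of log2(CPM + 1), less the mean of the chow libraries (numbers in the cells; colour limited to -4 to 4). Mast cell genes are highest in high-fat diet replicate 1, striated muscle genes stand out in chow replicate 3 and smooth muscle genes are less reduced in high-fat diet replicate 3 than in the other high-fat diet libraries.

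On the FPKM scale, which allows levels of different genes to be compared, Pla2g2a, a secreted phospholipase with antibacterial activity, rose the most, from 47.7 ± 34.7 to 8524 ± 4290.2 FPKM. It was followed by Ifitm3, an interferon-induced membrane protein (114 ± 29.96 to 1170.2 ± 295 FPKM), and the mast cell protease Mcpt1 (1.001 ± 0.132 to 971 ± 1137 FPKM). The deposited annotation lists Pla2g2a as a polymorphic pseudogene as well as protein-coding, and the enzyme itself was not measured. Mt4, a metallothionein best known from stratified epithelium, went from 0.384 ± 0.398 to 758 ± 295 FPKM, and S100a11, a calcium-binding protein, from 244 ± 29.9 to 928 ± 20.6 FPKM. The antibacterial protein Pglyrp1, the lipase homologue Pnliprp1, Ifitm2, Mcpt2 and the chaperone gene Hsp90ab1 completed the 10 greatest rises. The greatest falls included products of goblet cells and surface colonocytes. Zg16, a lectin of the mucus, went from 2517 ± 341 to 376 ± 260.4 FPKM, Lypd8, which binds flagellated bacteria at the surface, from 3788 ± 853 to 1919 ± 508 FPKM, and Tff3, a goblet cell peptide, from 1604 ± 369 to 469 ± 222 FPKM. Sycn, Guca2a (the gut hormone guanylin), Muc3, Klk1 and Cyp2c55 were also among these 10. Of them Sycn and Cyp2c55 belong to the proximal colon markers given above, and the part of the colon region sampled was not tested. Car1, a carbonic anhydrase, and Muc2, the main gel-forming mucin, belonged there too, but with 1 chow library far above the others. Car1 gave 692, 4557 and 292 CPM in the chow libraries and 49.9, 124 and 123 CPM in the high-fat diet libraries, and Muc2 gave 3330.1, 15909 and 1649 CPM in the chow libraries and 1308, 790.0 and 185 CPM in the high-fat diet libraries. Chow replicate 2, which was also the highest for the sums of goblet and proximal colon genes, was the highest library for both. The call of Car1 did not hold without high-fat diet replicate 1, 2 or 3 (adjusted p = 0.0617, 0.0539 and 0.0502), and that of Muc2 without high-fat diet replicate 2 or 3, chow replicate 2 or berberine replicate 2 (adjusted p = 0.0947, 0.0767, 0.126 and 0.0532).

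The changes with the smallest p were tight within each group. Prox1, a homeobox factor, gave 7.14, 8.81 and 7.53 CPM in the chow libraries and 397, 387 and 348 CPM in the high-fat diet libraries (adjusted p = 8.6e-06). Erich3, a glutamate-rich protein, gave 2.09, 2.21 and 1.85 CPM in the chow libraries and 122, 144 and 95.6 CPM in the high-fat diet libraries (adjusted p = 9.78e-06). Spock2, a secreted proteoglycan (ENSMUSG00000058297, GRCm38 chromosome 10, 60106219 to 60135198), gave 33.7, 28.6 and 35.6 CPM in the chow libraries and 2677, 1789 and 1436 CPM in the high-fat diet libraries, a log2 fold change of 5.91 ± 0.27. In these 3 genes every high-fat diet library lay far above every chow library. Ptpro, a receptor phosphatase, Plxnb1, a semaphorin receptor, Gpc1, a heparan sulfate proteoglycan, Rdh10, a retinol dehydrogenase, the keratin Krt7, the sorting receptor Sorcs2 and the aromatic amino acid transporter Slc16a10 followed, with log2 fold changes between 2.23 ± 0.12 and 4.19 ± 0.20. In the other direction, Selenbp1, a selenium-binding methanethiol oxidase (ENSMUSG00000068874, GRCm38 chromosome 3, 94933056 to 94944758), gave 1633, 1657 and 1343 CPM in the chow libraries and 37.9, 40.6 and 30.2 CPM in the high-fat diet libraries. Its close paralog Selenbp2 gave 187, 211 and 129 CPM in the chow libraries and 3.27, 4.91 and 2.82 CPM in the high-fat diet libraries. Their adjusted p were 4.24e-05 and 5.28e-05, and reads of such close paralogs may be split between them. Cyp2s1, Akr1c14, which reduces steroids, Cyp2d22, the carrier Slc25a34, the matrix protein Dpt, the inflammasome sensor Nlrp6, Gcg and Klf4 also fell with little spread. Nlrp6 gave 167, 205 and 146 CPM in the chow libraries and 19.5, 27.6 and 18.9 CPM in the high-fat diet libraries. Klf4, a factor of terminal differentiation, gave 722, 674 and 695 CPM in the chow libraries and 138, 163 and 110.4 CPM in the high-fat diet libraries. The groups did not overlap in any of these genes, which by itself was common, since 45.7% of all tested genes had groups that did not overlap.

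By fold change, among genes with at least 50 CPM in the higher group and no overlap, mast cell genes led the rises. Of 9 tested mast cell markers 8 rose and 1 fell, where 15.1% of all tested genes rose and 16.6% fell. However, 5 of the 8 averaged under 1 FPKM outside the high-fat diet libraries and entered the test only through them, so that the count is a description. The tryptase Tpsab1 was at 0 in chow and at 374, 48.8 and 7.37 CPM on the high-fat diet, at least 2177-fold higher, or at least 426-fold without high-fat diet replicate 1. Tpsb2, Mcpt1, Mcpt2 and Mcpt4 rose by 9.51 ± 1.15, 9.77 ± 1.19, 9.89 ± 1.19 and 8.50 ± 1.68 on the log2 scale. Without high-fat diet replicate 1, which held the highest mast cell sum, these rises were 8.23, 8.19, 8.35 and 6.57, and close copies of these proteases may share reads. Otop1, a proton channel, gave 0, 0.0754 and 0.0295 CPM in the chow libraries and 84.2, 42.8 and 27.4 CPM in the high-fat diet libraries, and Notum, an enzyme that inactivates Wnt ligands, rose by 9.27 ± 0.70. Pnliprp1, Mt4 and Defa24 were the other 3. The lowest fold changes were in detoxifying and transport genes, among them Ugt1a6a, a glucuronosyltransferase (-5.76 ± 0.94), the carboxylesterase Ces1f (-5.52 ± 1.38), the water channel Aqp8 (-5.67 ± 0.49), and Cyp2c55, Cyp2c65, Fabp2, Selenbp1, Selenbp2 and Sult1a1. The call of Ces1f did not hold without high-fat diet replicate 1, 2 or 3 (adjusted p = 0.0525, 0.0603 and 0.0579). Myh4, a skeletal muscle myosin, was also among these 10 but rests on 1 library, at 0.343, 0.321 and 669.9 CPM in the chow libraries and 0, 0 and 0 CPM in the high-fat diet libraries, and its call did not hold without any 1 high-fat diet or berberine library (adjusted p = 0.073 to 0.0975).

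Most Wnt feedback inhibitors rose, several by large amounts. Of their list, 10 of 14 tested members rose and 2 fell, with a median log2 fold change of 2.69, against a median of 0.00 over all tested genes. Of these 10, 3 averaged under 1 FPKM outside the high-fat diet libraries and thus entered the test only through them. Wif1, a secreted protein that binds Wnt ligands (ENSMUSG00000020218, GRCm38 chromosome 10, 121033960 to 121100650), gave 4.21, 0.717 and 3.41 CPM in the chow libraries and 1091, 415 and 351 CPM in the high-fat diet libraries, a log2 fold change of 7.79 ± 0.81 (adjusted p = 0.00045). Apcdd1, a membrane inhibitor, gave 5.93, 3.66 and 6.303 CPM in the chow libraries and 401, 252 and 269 CPM in the high-fat diet libraries (log2 fold change 5.86 ± 0.51, adjusted p = 0.000244). For both, the lowest high-fat diet library was far above the highest chow library. Axin2, the scaffold of the beta-catenin destruction complex, rose by 3.34 ± 0.32, Nkd1 by 4.05 ± 0.33, and Rnf43 and Znrf3, ligases that remove Frizzled receptors from the cell surface, by 2.73 ± 0.23 and 2.39 ± 0.23 on the log2 scale. The antagonist gene Dkk2 went from 2.49 ± 1.903 to 53.9 ± 17.2 CPM and Dkk3 from 61.7 ± 12.3 to 171 ± 78.6 CPM. Not all inhibitors followed: Sfrp1, a decoy receptor, fell from 39.4 ± 16.7 to 8.01 ± 5.83 CPM and Nkd2 from 22.4 ± 5.36 to 5.07 ± 3.95 CPM.

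**Figure D3:**
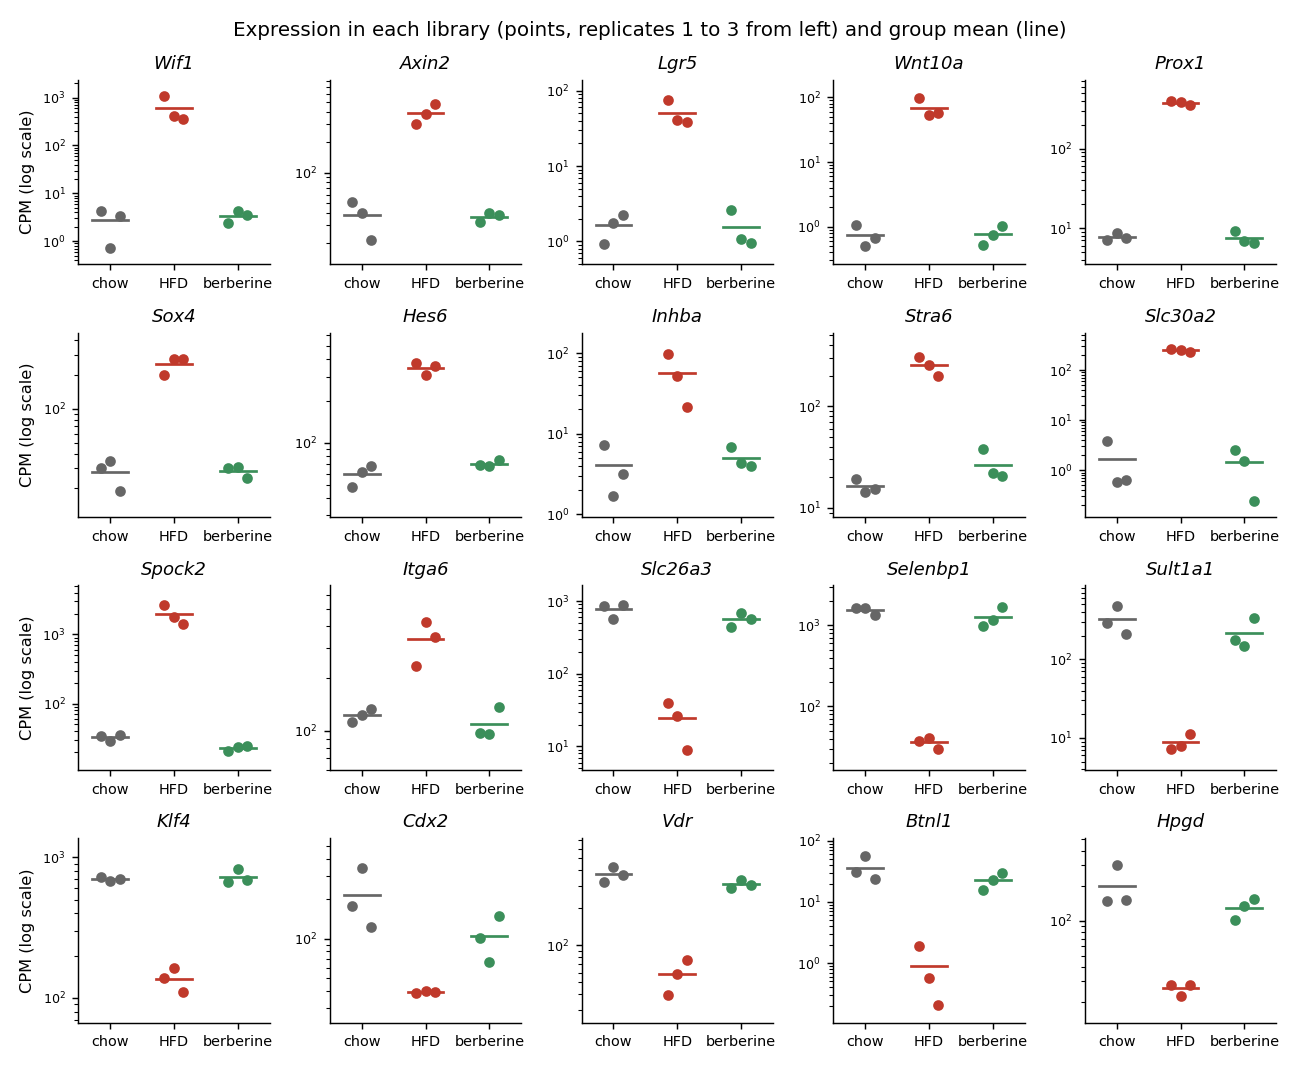
Level of 20 genes in each of the 9 libraries (y axis, CPM on a log scale; points are replicates 1 to 3 from left in each group, lines group means). Genes that rose, such as Wif1 and Axin2, have all high-fat diet libraries above all chow libraries, and those that fell have them below, while the berberine libraries are shown for their own level.

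Among Wnt ligands and receptors the changes went both ways. In this list 7 of 24 tested members rose and 5 fell, 5 of the former under 1 FPKM on average outside the high-fat diet libraries. The ligand genes Wnt6 and Wnt10a went from 2.48 ± 1.47 to 125 ± 54.01 CPM and from 0.745 ± 0.285 to 69.1 ± 23.7 CPM, and the ligands Wnt4, Wnt5a and Wnt5b did not pass the test. Of the R-spondin receptors, Lgr5, the stem cell marker, rose from 1.64 ± 0.669 to 51.3 ± 20.6 CPM and Lgr6 from 0.8105 ± 0.876 to 39.6 ± 14.6 CPM, whereas Lgr4, which is expressed more widely in the epithelium, fell from 151 ± 26.99 to 71.1 ± 4.97 CPM. Among Frizzled receptors, Fzd10 rose by 4.56 ± 0.69 and Fzd5 fell by 1.59 ± 0.31 on the log2 scale, and the co-receptor gene Lrp6 fell by 0.79 ± 0.15. Inside the cell, Ctnnb1, which encodes beta-catenin, stood at 594, 1030.2 and 597 CPM in the chow libraries and 757, 942 and 715 CPM in the high-fat diet libraries. Apc, of the destruction complex, stood at 119, 115 and 50.6 CPM in the chow libraries and 87.9, 115 and 107 CPM in the high-fat diet libraries. Neither passed the test. Of the factors that bring beta-catenin to DNA, Lef1 rose by 2.91 ± 0.31 and Tcf7 by 1.56 ± 0.30, while Tcf7l2, the main one of normal gut, fell by 1.18 ± 0.23. The kinase gene Gsk3b rose from 22.5 ± 2.97 to 86.9 ± 10.6 CPM, and in the whole list of this complex and its partners 6 of 19 tested members rose and 1 fell.

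Notch genes included Hes6, a helix-loop-helix factor, which rose from 59.5 ± 10.04 to 348 ± 34.9 CPM, the receptor Notch1 (1.31 ± 0.13 on the log2 scale) and the ligand Jag2 (1.71 ± 0.20). The ligand Dll1, made by secretory precursors, fell by 0.87 ± 0.21, and Hes1, the usual readout of Notch in the crypt, stood at 78.5 ± 17.1 in chow and 89.6 ± 15.1 CPM on the high-fat diet and did not pass the test. Of this list 8 of 20 tested members rose and 3 fell. Among BMP and TGF-beta genes 10 of 37 tested members rose and 4 fell. Among the rises were ligands and a decoy. Inhba and Inhbb, the subunits of activins, rose from 4.07 ± 2.91 to 56.9 ± 38.5 CPM and from 3.00 ± 0.684 to 28.8 ± 11.9 CPM, Bmp7 from 7.29 ± 1.26 to 61.6 ± 37.1 CPM, and Bambi, a decoy receptor, from 9.23 ± 1.57 to 39.9 ± 9.31 CPM. The ligand Bmp3 fell from 33.3 ± 15.9 to 6.56 ± 2.65 CPM, and the co-receptor Tgfbr3 from 28.4 ± 11.7 to 7.44 ± 3.96 CPM. Id1, a BMP target, did not pass the test (331 ± 204 and 357 ± 47.4 CPM).

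In the Hedgehog pathway, Shh, a ligand that the adult colon hardly expresses, gave 0.3103, 3.09 and 0.177 CPM in the chow libraries and 20.2, 43.7 and 48.5 CPM in the high-fat diet libraries (log2 fold change 4.99 ± 1.12, adjusted p = 0.0111). Ihh, the ligand of mature colonocytes, gave 124, 146 and 136 CPM in the chow libraries and 116, 145 and 157 CPM in the high-fat diet libraries and did not pass the test. The high-fat diet libraries were thus above chow for Shh and overlapped chow for Ihh. The co-receptor Cdon fell by 1.34 ± 0.24 on the log2 scale, and the targets Gli1 and Ptch1 did not pass the test. Of 10 Hedgehog genes, 2 rose and 2 fell. In EGF receptor signalling, several genes downstream of ERK rose and 2 receptors fell. Phlda1 rose from 35.4 ± 3.46 to 322 ± 73.2 CPM, the ETS factor Etv5 from 23.1 ± 15.4 to 164 ± 90.6 CPM and the ERK phosphatase Dusp4 from 9.27 ± 3.16 to 38.97 ± 13.5 CPM, whereas the receptor Erbb3 fell from 341 ± 98.4 to 148 ± 16.8 CPM, as did Erbb2 (log2 fold change -0.76 ± 0.13), and Lrig1, a brake on these receptors, went from 142 ± 1.36 to 67.1 ± 23.96 CPM. The list had 6 members higher and 4 lower of 21, and the ligands Areg, Ereg and Hbegf did not pass the test. In the FGF, HGF and IGF axis 3 of 25 tested members rose and 10 fell. Fgfbp1, which releases FGFs from the matrix, fell from 90.9 ± 70.4 to 10.8 ± 5.29 CPM and the receptor gene Fgfr3 from 19.3 ± 4.91 to 2.904 ± 0.5199 CPM, while Igf1 rose from 8.39 ± 1.04 to 32.1 ± 13.4 CPM. Of YAP and TEAD targets 3 of 21 tested members rose and 5 fell, with Tead2 going from 9.67 ± 2.05 to 87.8 ± 16.7 CPM and Ajuba from 6.13 ± 1.61 to 37.5 ± 5.49 CPM, and the classical targets Ccn1 and Ccn2 not passing the test. The share of this list called was 38.1%, beside 31.7% of all tested genes.

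Of the transcription factors of intestinal identity and lineage 15 of 37 tested members rose and 11 fell. Among those that fell, Cdx1 had a log2 fold change of -1.35 ± 0.14, Hnf4a of -1.12 ± 0.18 and the secretory factors Atoh1, Spdef and Creb3l1 of -2.49 ± 0.28, -1.73 ± 0.38 and -1.69 ± 0.37. Among those that rose were Ascl2, the Wnt-dependent stem cell factor, from 10.3 ± 7.32 to 58.5 ± 25.01 CPM, Myc from 28.2 ± 7.32 to 100.3 ± 11.4 CPM, the RNA-binding protein gene Msi1 from 4.11 ± 2.79 to 30.02 ± 15.98 CPM and Gata5 from 0.370 ± 0.127 to 19.8 ± 1.84 CPM. Elf3, Ehf and Klf5, which are expressed throughout the epithelium, did not pass the test. All changes among 9 tested Sox factors were upward, 6 in number. Of these 6, 2 averaged under 1 FPKM outside the high-fat diet libraries and could only be tested because they were high there. Sox17, an endoderm factor, gave 1.94, 0.867 and 1.67 CPM in the chow libraries and 86.3, 99.7 and 124 CPM in the high-fat diet libraries (log2 fold change 6.10 ± 0.66, adjusted p = 0.00051). Sox21, a neural and airway factor, gave 7.86, 7.28 and 3.14 CPM in the chow libraries and 80.8, 128 and 154 CPM in the high-fat diet libraries. Sox4, of progenitor cells, gave 29.9, 34.7 and 19.1 CPM in the chow libraries and 199.7, 274 and 272 CPM in the high-fat diet libraries. The groups did not overlap in these 3 genes. Sox9, of the crypt base, rose by 1.29 ± 0.28, and Sox2, a foregut factor, from 1.24 ± 0.567 to 10.2 ± 7.19 CPM. Nuclear receptors showed the opposite balance, as 1 of 32 tested members rose and 14 fell. Among those that fell were Nr5a2 (from 37.7 ± 9.53 to 2.64 ± 1.35 CPM), Nr3c2, the mineralocorticoid receptor (from 124 ± 13.99 to 24.6 ± 5.67 CPM), Nr1h4, the bile acid receptor (log2 fold change -1.46 ± 0.25), and Nr3c1, the glucocorticoid receptor (-1.04 ± 0.25). Nr4a2 was the receptor gene that rose, from 4.13 ± 1.06 to 19.6 ± 3.52 CPM.

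Markers of stem and progenitor cells also went both ways, as 12 of 25 tested members rose and 7 fell. Smoc2 and Cdca7, of crypt base and progenitor cells, rose from 21.6 ± 2.88 to 200.4 ± 53.9 CPM and from 51.3 ± 3.14 to 113 ± 42.0 CPM. Aqp4, a water channel, fell from 259.7 ± 134 to 28.98 ± 12.8 CPM, and Rgmb, a BMP co-receptor, from 98.98 ± 14.9 to 39.4 ± 10.1 CPM. Of the TNF family 8 of 24 tested members rose and 3 fell, with 1 lower without high-fat diet replicate 3 or chow replicate 2. Tnfrsf11b, osteoprotegerin, a decoy of the ligand of Tnfrsf11a, gave 7.595, 5.45 and 5.46 CPM in the chow libraries and 215, 277 and 227 CPM in the high-fat diet libraries, while Tnfrsf11a fell from 127 ± 25.7 to 56.5 ± 7.82 CPM. Tnfrsf12a, the receptor of TWEAK, rose from 10.5 ± 0.764 to 71.5 ± 8.77 CPM. Of tetraspanins 2 of 17 tested members rose and 8 fell, where Tspan1 fell from 1131 ± 317 to 363 ± 123 CPM and Tspan12, a partner of a Frizzled receptor, rose from 42.8 ± 7.497 to 178 ± 41.5 CPM. Of 23 tested Hox genes 1 rose and 5 fell, with Hoxb3 going from 18.1 ± 12.6 to 4.63 ± 1.03 CPM, a call that did not hold without high-fat diet replicate 3 (adjusted p = 0.0544). The share of Hox genes called was 26.1%, against 31.7% of all tested genes. Serine proteases included the mast cell proteases and Htra1, a secreted protease that rose from 47.1 ± 4.32 to 219 ± 93.4 CPM, while Prss30, of the epithelium, fell from 223 ± 63.1 to 34.7 ± 11.7 CPM, and of the whole family 8 of 22 tested members rose and 6 fell.

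Genes of regenerating or fetal-like epithelium made a list in which 13 of 25 tested members rose and 0 fell, with a median log2 fold change of 1.27. Krt23, a keratin, gave 4.39, 10.1 and 5.54 CPM in the chow libraries and 189, 103 and 94.2 CPM in the high-fat diet libraries (log2 fold change 4.27 ± 0.49, adjusted p = 0.000627). Spp1, the secreted protein osteopontin, gave 2.37, 7.13 and 2.49 CPM in the chow libraries and 125, 41.1 and 29.7 CPM in the high-fat diet libraries. High-fat diet libraries lay above chow libraries in both, and high-fat diet replicate 1 was the highest. Anxa1, Anxa2 and Anxa8, of the annexins, rose by 1.08 ± 0.24, 1.40 ± 0.15 and 1.75 ± 0.38, whereas Clu and Ly6a, other genes of this state, did not pass the test. Paneth cells, which the mouse colon normally lacks, are marked by defensins and lysozyme. Of their products 10 of 20 tested members rose and 0 fell, but 7 of the 10 were at 0 in every chow library and entered the test only through the high-fat diet libraries, so that the count is a description. Defa24, a defensin, was at 0 in the chow libraries and at 35.9, 74.1 and 84.4 CPM in the high-fat diet libraries, at least 983-fold higher. Other defensin genes share nearly identical sequences, so that their separate counts are uncertain. Reg3b, Reg3g and Ang4, further antibacterial products of the gut, did not pass the test. Genes of other parts of the gut moved both ways: Muc6, a gastric mucin, rose from 0.658 ± 0.524 to 31.98 ± 29.0 CPM and Vsig1, of gastric epithelium, from 3.48 ± 2.09 to 17.3 ± 5.07 CPM, while Fabp2, the small intestinal fatty acid-binding protein, fell from 184 ± 265 to 2.296 ± 0.886 CPM with its highest value in chow replicate 2, and the peptide transporter Slc15a1 from 119 ± 58.03 to 21.95 ± 11.2 CPM. Of keratins 8 of 18 tested members rose and 1 fell. Krt36, a hair keratin, gave 5.11, 1.87 and 4.797 CPM in the chow libraries and 197, 263 and 181 CPM in the high-fat diet libraries. Krt20, of surface colonocytes, fell from 833 ± 271 to 222 ± 94.3 CPM.

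Of the genes of salt and water transport 1 of 42 tested members rose and 24 fell, with a median log2 fold change of -1.73, beside the fall of proximal colon markers given above. Slc9a2, a sodium and hydrogen exchanger, gave 296, 449 and 258 CPM in the chow libraries and 38.5, 37.05 and 30.9 CPM in the high-fat diet libraries (log2 fold change -3.24 ± 0.25, adjusted p = 0.000136). Car4, a membrane carbonic anhydrase, gave 847, 854 and 841 CPM in the chow libraries and 56.2, 56.7 and 11.7 CPM in the high-fat diet libraries (log2 fold change -4.35 ± 0.56, adjusted p = 0.00104). No high-fat diet library reached a chow library in either. The chloride channel Cftr fell from 107 ± 45.7 to 20.97 ± 1.49 CPM, the sodium channel subunit Scnn1a from 128 ± 6.82 to 36.3 ± 11.1 CPM and the bicarbonate transporter Slc4a4 from 134 ± 106 to 26.5 ± 5.73 CPM. Gucy2c, the receptor of guanylin, had a log2 fold change of -1.81 ± 0.39, and Sgk1, a kinase induced by aldosterone, of -1.78 ± 0.41. The member that rose was Clca4b, of the chloride channel accessory family, at 23.9, 5.41 and 1.64 CPM in the chow libraries and 225, 499 and 161 CPM in the high-fat diet libraries. Of 206 solute carriers, 34 rose and 70 fell. Several carriers near 0 in chow rose, among them Slc26a9, an anion channel of stomach and airway, from 0.0436 ± 0.0754 to 18.4 ± 6.904 CPM, and Slc9a4, a sodium and hydrogen exchanger of the stomach, from 0.401 ± 0.168 to 20.5 ± 7.66 CPM.

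Of the transporters of short-chain fatty acids, sugars, vitamins and nucleosides 1 of 28 tested members rose and 14 fell, with a median log2 fold change of -0.73. Slc16a1, the monocarboxylate transporter that takes up butyrate, gave 437, 317 and 285 CPM in the chow libraries and 83.2, 117 and 99.04 CPM in the high-fat diet libraries. Slc16a3, the lactate exporter and the member that rose, gave 17.5, 14.4 and 30.5 CPM in the chow libraries and 169, 166 and 145 CPM in the high-fat diet libraries (log2 fold change 2.94 ± 0.33, adjusted p = 0.000569). The 2 carriers of this family thus moved in opposite directions with no overlap of the groups. Slc26a2, a sulfate transporter, fell from 833 ± 152 to 94.4 ± 26.3 CPM and the phosphate transporter Slc20a1 from 445 ± 169 to 74.7 ± 4.96 CPM. Among amino acid and peptide transporters 9 of 24 tested members rose and 5 fell, a number of lower members that became 3 without berberine replicate 3. Slc7a5, which imports leucine, rose from 17.3 ± 0.574 to 66.1 ± 14.6 CPM, its relative Slc7a8 from 10.5 ± 4.15 to 98.1 ± 82.4 CPM, and the glycine transporter Slc6a9 from 22.3 ± 2.898 to 95.8 ± 26.4 CPM. Slc6a14, a broad carrier of the colon surface, fell from 459 ± 181 to 59.5 ± 25.5 CPM. Of ABC transporters 6 of 32 tested members rose and 11 fell. Abcg2, an efflux pump, fell from 87.9 ± 59.8 to 13.5 ± 5.39 CPM, Abcc3, an exporter of conjugates, from 211 ± 103 to 70.05 ± 19.7 CPM, while Abcc4 rose from 26.9 ± 8.27 to 138 ± 32.6 CPM.

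Of mucus genes 1 of 42 tested members rose and 18 fell, with a median log2 fold change of -1.52, or -0.95 without chow replicate 2, beside the lower goblet cell sums given above. Agr2, a disulfide isomerase needed for mucin folding, gave 747, 1447 and 489 CPM in the chow libraries and 203, 172 and 99.5 CPM in the high-fat diet libraries. The glycosyltransferases B3gnt7 and Gcnt3 fell from 473 ± 258 to 56.3 ± 31.5 CPM and from 146 ± 116 to 16.6 ± 8.03 CPM. B4galt1, a galactosyltransferase, was the member that rose (0.61 ± 0.19), a call that did not hold without high-fat diet replicate 1 or 2 (adjusted p = 0.0785 and 0.123), chow replicate 2 or 3 (0.103 and 0.0782) or berberine replicate 1 or 2 (0.0548 and 0.0565). Of brush border and surface genes 1 of 30 tested members rose and 17 fell, with a median log2 fold change of -1.06. Dpep1, a membrane dipeptidase, went from 137 ± 147 to 4.22 ± 1.71 CPM and Phgr1, a protein of surface cells, from 345 ± 31.1 to 65.4 ± 13.7 CPM. Tight junction genes were mixed, with 3 of 27 members higher and 7 lower. Cldn15, a claudin that passes sodium, fell from 76.1 ± 67.99 to 10.9 ± 0.988 CPM, Cldn4 rose from 112 ± 42.5 to 531 ± 54.4 CPM, and Cldn6, an embryonic claudin, was at 0 in chow and at 8.91, 10.5 and 11.03 CPM on the high-fat diet, at least 154-fold higher. Among adhesion genes 9 of 41 tested members rose and 8 fell. Both chains of the hemidesmosome integrin and a laminin chain rose: Itga6 from 123 ± 10.1 to 335 ± 93.9 CPM, Itgb4 from 212 ± 8.97 to 349 ± 66.6 CPM and Lama5 from 81.3 ± 12.1 to 279 ± 51.7 CPM. The protocadherins of the brush border, Cdhr2 and Cdhr5, fell (log2 fold changes -2.14 ± 0.40 and -1.33 ± 0.23), and Cdh1, the E-cadherin gene, did not pass the test.

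**Figure D4:**
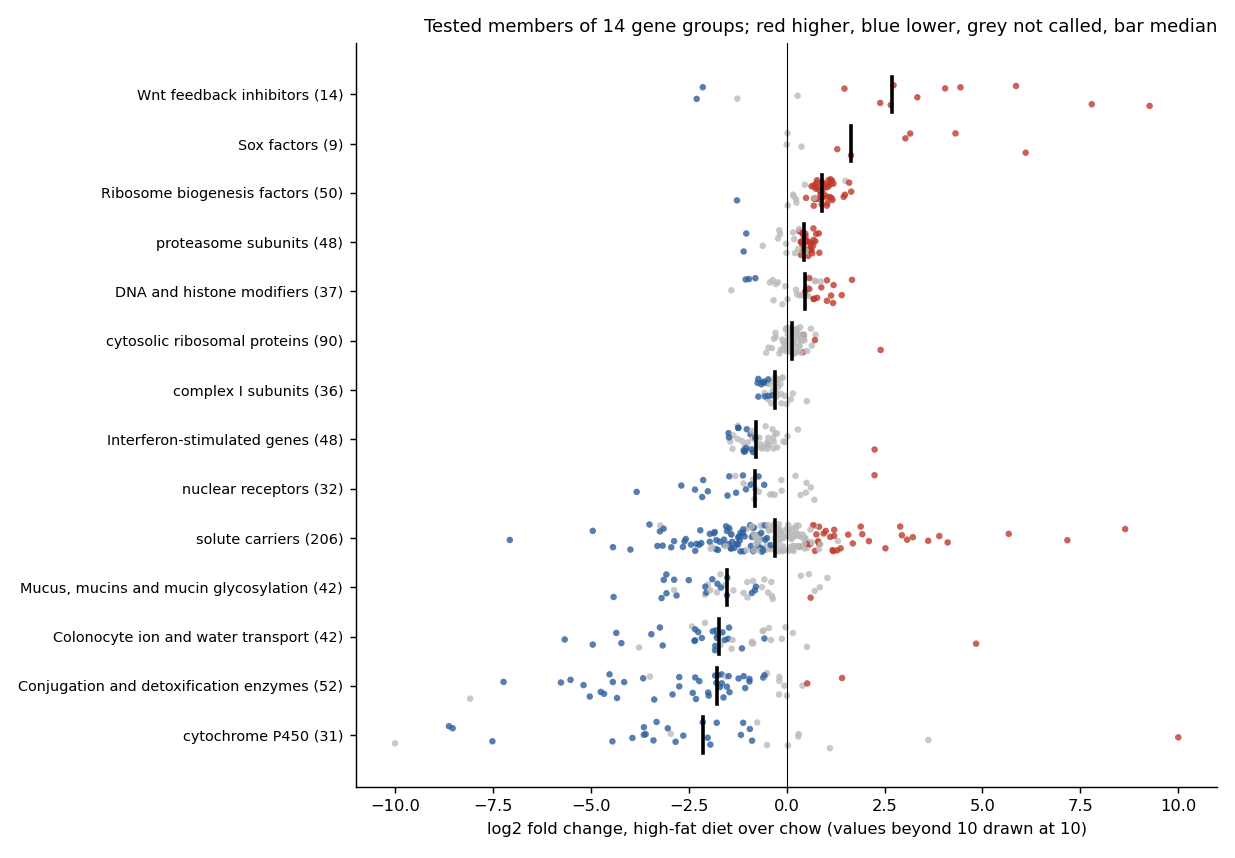
Log2 fold change of high-fat diet over chow for each tested member of 14 gene groups (1 point per gene, x axis, values beyond 10 drawn at 10; groups in rows), in red where it rose, blue where it fell and grey where it was not called, with a bar at the median. The members of ribosome biogenesis lie mostly to the right of 0 and close together, those of the conjugating enzymes and ion transport mostly to the left and spread widely.

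Enzymes of foreign compounds and steroids nearly all fell where they changed. Of cytochromes P450 and steroid enzymes 1 of 35 tested members rose and 22 fell, with a median log2 fold change of -1.96 (the same with genes at 0 in a whole group set to their bound), and 3 members rose without chow replicate 3. Cyp2s1, which is expressed in epithelia, gave 127, 143 and 174 CPM in the chow libraries and 10.3, 10.98 and 14.3 CPM in the high-fat diet libraries (log2 fold change -3.64 ± 0.20, adjusted p = 5.28e-05). Cyp2c55 gave 819.9, 3419 and 344 CPM in the chow libraries and 5.77, 2.49 and 3.33 CPM in the high-fat diet libraries. The chow libraries were thus close together for Cyp2s1 and far apart for Cyp2c55, with chow replicate 2 the highest for the latter, and Cyp2d34 fell from 342 ± 56.2 to 88.5 ± 13.8 CPM. The steroid enzymes Hsd3b3, Hsd17b2 and Hsd11b2, the last of which inactivates glucocorticoids, fell, with log2 fold changes of -4.79 ± 0.84, -1.96 ± 0.23 and -2.17 ± 0.34. The member that rose was Cyp21a1, the adrenal steroid hydroxylase, at 0 in chow and 32.1, 27.7 and 12.8 CPM on the high-fat diet, at least 367-fold higher. Of conjugation and detoxification enzymes 2 of 52 tested members rose and 39 fell, with a median log2 fold change of -1.77. Sult1a1, a sulfotransferase (ENSMUSG00000030711, GRCm38 chromosome 7, 126672865 to 126676432), gave 289, 469 and 208 CPM in the chow libraries and 7.24, 7.97 and 11.3 CPM in the high-fat diet libraries (log2 fold change -5.19 ± 0.45, adjusted p = 0.000244). Ces2c, a carboxylesterase, gave 228, 476 and 151 CPM in the chow libraries and 17.4, 21.5 and 9.29 CPM in the high-fat diet libraries. Gstm2, a glutathione transferase, gave 181, 139 and 195 CPM in the chow libraries and 47.8, 49.2 and 32.5 CPM in the high-fat diet libraries. All chow libraries lay above all high-fat diet libraries in each, and reads of the Ces, Gstm, Ugt1a and Cyp2c families may be split between close copies. The sulfide-oxidising enzymes Ethe1 and Sqor, which clear gas made by gut bacteria, fell from 440.3 ± 161 to 83.5 ± 5.97 CPM and from 444 ± 151 to 189.9 ± 26.9 CPM. Gstm5, a glutathione transferase, was among the members that rose (1.42 ± 0.26).

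Promoters were searched for the letters of 4 transcription factor motifs. For 9253 of 14490 tested genes with a unique symbol, RefSeq (GRCm38.p6) gave the 250 bases before a transcription start within 1000 bases of the deposited start. Searched on both strands were CTTTGAT for TCF factors, CAAAGTCCA for HNF4, TTTATNG for CDX and TGANTCA for AP-1, where overlaps between motifs were allowed. The HNF4 letters were present in 0.411% of all these promoters, in 1.04% of genes that fell (17 of 1640), in 0.336% of those that rose (5 of 1490) and in 0.261% of those not called (16 of 6123). By list they were in 2 of 26 promoters of cytochromes P450 and steroid enzymes, and in 0 of 40 of conjugation and detoxification enzymes, 0 of 21 of ion and water transport and 0 of 24 of brush border genes. The TCF letters were in 2.37% of all, 2.62% of genes that fell and 2.89% of those that rose, and in 0 of the 7 Wnt feedback inhibitors with a promoter. The CDX letters were in 6.82% of all, 7.13% of genes that fell and 7.72% of those that rose, and the AP-1 letters in 4.47%, 5.91% and 4.43%. These shares are descriptions with no test, and a match is not a bound site. Of the 17 genes that fell and held the HNF4 letters, 5 were Cyp2c genes (Cyp2c40, Cyp2c65, Cyp2c67, Cyp2c68 and Cyp2c69) of 1 cluster on chromosome 19, which share ancestry. The call of Cyp2c65 did not hold with high-fat diet replicate 3 left out (adjusted p = 0.0507), and those of the other 4 held with any 1 library left out. The promoters of 2 of them and of Btnl2, a butyrophilin-like gene of the epithelium, are printed to show where the match lies, 5′ to 3′ in the direction of the gene with the HNF4 letters in capitals. Their calls held whichever single library was left out. They lie at chr19:39741102-39741351 (minus strand), chr19:39886770-39887019 (minus strand) and chr17:34354572-34354821 (plus strand).
Cyp2c68: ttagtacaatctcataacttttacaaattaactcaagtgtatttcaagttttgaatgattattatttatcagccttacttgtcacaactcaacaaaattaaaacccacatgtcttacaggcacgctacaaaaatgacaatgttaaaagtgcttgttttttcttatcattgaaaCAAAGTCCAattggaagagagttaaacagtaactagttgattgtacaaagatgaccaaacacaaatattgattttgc
Cyp2c69: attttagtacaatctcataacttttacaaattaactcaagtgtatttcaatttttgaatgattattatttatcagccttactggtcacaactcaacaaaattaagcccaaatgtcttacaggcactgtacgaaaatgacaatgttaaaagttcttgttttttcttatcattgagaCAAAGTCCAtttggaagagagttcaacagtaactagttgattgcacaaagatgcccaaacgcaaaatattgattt
Btnl2: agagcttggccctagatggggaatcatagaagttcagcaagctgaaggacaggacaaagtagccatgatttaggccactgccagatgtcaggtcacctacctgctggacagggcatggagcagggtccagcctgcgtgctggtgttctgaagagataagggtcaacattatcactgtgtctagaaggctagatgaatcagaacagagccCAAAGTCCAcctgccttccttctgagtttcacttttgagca
The match began 77 bases before the start of Cyp2c68, 75 before that of Cyp2c69 and 41 before that of Btnl2. Cyp2c68 gave 57.1, 27.5 and 61.2 CPM in the chow libraries and 6.68, 5.63 and 2.25 CPM in the high-fat diet libraries. Cyp2c69 gave 8.67, 12.5 and 7.76 CPM in the chow libraries and 1.05, 0.0859 and 0.161 CPM in the high-fat diet libraries. Btnl2 gave 3.72, 6.81 and 6.63 CPM in the chow libraries and 0.471, 0.5496 and 0.129 CPM in the high-fat diet libraries. No high-fat diet library reached a chow library in any of the 3, and the highest chow library differed between them.

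Retinoid genes changed in both directions. Of the list 7 of 30 tested members rose and 10 fell. Stra6, the receptor that imports retinol, gave 19.3, 14.2 and 15.5 CPM in the chow libraries and 302, 254 and 199 CPM in the high-fat diet libraries (log2 fold change 3.95 ± 0.29, adjusted p = 0.000133). Rdh10, which oxidises retinol, gave 40.1, 43.03 and 44.7 CPM in the chow libraries and 222, 299 and 232 CPM in the high-fat diet libraries. Both were higher in every high-fat diet library than in any chow library. Aldh1a3, which makes retinoic acid, gave 29.3, 12.3 and 11.1 CPM in the chow libraries and 227, 332 and 109 CPM in the high-fat diet libraries. In contrast Aldh1a1, another retinaldehyde dehydrogenase, gave 58.2, 364 and 48.03 CPM in the chow libraries and 4.62, 5.14 and 10.7 CPM in the high-fat diet libraries, with chow replicate 2 the highest. The 2 dehydrogenases moved apart, and Adh1, an alcohol dehydrogenase, fell from 1529 ± 673 to 222 ± 46.3 CPM. Trpv6, the calcium channel of the gut, rose from 3.75 ± 4.07 to 32.4 ± 11.6 CPM. Among prostaglandin and leukotriene genes 6 of 26 tested members rose and 7 fell, with 10 higher without high-fat diet replicate 3. Hpgd, which breaks prostaglandins down, fell from 199 ± 86.7 to 26.1 ± 3.06 CPM, and Slco2a1, which carries them into the cell, from 109 ± 6.47 to 25.8 ± 14.3 CPM. The receptor gene Ptger3 fell from 10.7 ± 3.08 to 1.23 ± 0.5095 CPM. Ptgs2, the inducible cyclooxygenase, stood at 11.4, 16.4 and 9.99 CPM in the chow libraries and 102, 52.4 and 8.36 CPM in the high-fat diet libraries and did not pass the test (adjusted p = 0.0555), although it did by DESeq2 (adjusted p = 0.00494) and with library totals (0.0447). Alox12, a lipoxygenase, rose from 2.52 ± 1.16 to 96.7 ± 25.1 CPM.

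Of fat uptake, lipoprotein and lipid droplet genes 0 of 37 tested members rose and 10 fell, with a median log2 fold change of -0.59, or 1 and 4 with a median of -0.22 without chow replicates 2 and 3. Cpt1a, which admits fatty acids to mitochondria, gave 219.8, 342 and 144 CPM in the chow libraries and 107, 109 and 98.96 CPM in the high-fat diet libraries. Ppargc1a and Ppargc1b, coactivators of mitochondrial genes, fell, with log2 fold changes of -1.57 ± 0.18 and -2.11 ± 0.41. Of sphingolipid enzymes 3 of 31 tested members rose and 10 fell, or 6 and 6 with library totals as the scaling. The ceramidase Acer1 fell from 55.6 ± 8.62 to 8.89 ± 2.99 CPM, Ugcg, the first step of glycolipids, from 163 ± 19.2 to 85.6 ± 4.32 CPM, and Cers3, a ceramide synthase of skin, rose from 0.324 ± 0.211 to 10.8 ± 1.48 CPM. Of metal genes, in which some changes were large, 10 of 31 tested members rose and 7 fell. Slc30a10, a manganese exporter, gave 27.02, 45.7 and 11.1 CPM in the chow libraries and 0, 0.498 and 0.145 CPM in the high-fat diet libraries. Slc30a2, a zinc exporter, gave 3.89, 0.585 and 0.649 CPM in the chow libraries and 263, 246 and 230.2 CPM in the high-fat diet libraries (log2 fold change 7.17 ± 1.03, adjusted p = 0.0017). The 2 carriers of 1 family thus moved apart. Mt3, a metallothionein known from brain, gave 2.83, 8.49 and 3.87 CPM in the chow libraries and 497, 157 and 220.2 CPM in the high-fat diet libraries. Mt1, the common metallothionein, gave 59.5, 103 and 170.4 CPM in the chow libraries and 129.6, 79.99 and 134 CPM in the high-fat diet libraries. Mt3 rose with no overlap, whereas Mt1 did not pass the test. Lcn2, which binds bacterial iron carriers, rose from 1.11 ± 0.428 to 101 ± 102 CPM, and the iron exporter Slc40a1 fell from 196 ± 21.2 to 56.1 ± 9.604 CPM. In the list of redox genes 8 of 43 tested members rose and 10 fell, with log2 fold changes of -2.78 ± 0.35, -2.75 ± 0.20 and -2.49 ± 0.27 for Prdx6, Selenop and Txnip and of 0.91 ± 0.18 and 1.04 ± 0.12 for Prdx1 and Prdx2. Gpx2, a glutathione peroxidase of the crypt, rose from 150.3 ± 48.3 to 371 ± 97.3 CPM.

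Most ribosome biogenesis factors and proteasome subunits rose. Of 50 ribosome biogenesis factors, 41 rose and 1 fell, with a median log2 fold change of 0.90. Nhp2, of the RNA-modifying particles, gave 39.99, 39.7 and 37.8 CPM in the chow libraries and 125, 117 and 126 CPM in the high-fat diet libraries (log2 fold change 1.65 ± 0.14, adjusted p = 0.000244). Ltv1, of the small subunit, gave 35.9, 29.9 and 30.1 CPM in the chow libraries and 92.5, 95.1 and 102 CPM in the high-fat diet libraries. Nop56, of box C/D particles, gave 38.97, 36.1 and 46.6 CPM in the chow libraries and 89.9, 102 and 74.2 CPM in the high-fat diet libraries. The lowest high-fat diet library was above the highest chow library in each. Polr1a, the core of RNA polymerase I, rose by 1.01 ± 0.23, and the fibrillarin gene Fbl by 1.04 ± 0.16. The member that fell was Utp20 (-1.27 ± 0.28). Few cytosolic ribosomal protein genes were called: of 90 genes matched by name, 5 rose (among them the kinase Rps6kl1, 2.40 ± 0.38, which the name match also takes in) and 0 fell. The number that rose was 2 or 3 without chow replicate 1 or 2 or any high-fat diet replicate and 22 without chow replicate 3. Of proteasome subunits, 32 of 48 tested members rose and 2 fell, with a median log2 fold change of 0.43. Psmc4 and Psmb5, of the cap and the core, gave log2 fold changes of 0.76 ± 0.12 and 0.73 ± 0.15, and the lower members, the immunoproteasome subunits Psmb8 and Psmb9, both lost their calls without berberine replicate 2 (adjusted p = 0.053 and 0.0538), chow replicate 1 (0.0652 and 0.0582), chow replicate 3 (0.104 and 0.0915) or high-fat diet replicate 1 (0.0898 and 0.106) or 2 (0.0784 and 0.0876), and Psmb8 also without high-fat diet replicate 3 (0.0937). Of 36 complex I subunits 11 fell and 0 rose, and the number that fell was 4 and 5 without high-fat diet replicates 1 and 2, and 5 and 6 without chow replicates 2 and 3.

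**Figure D5:**
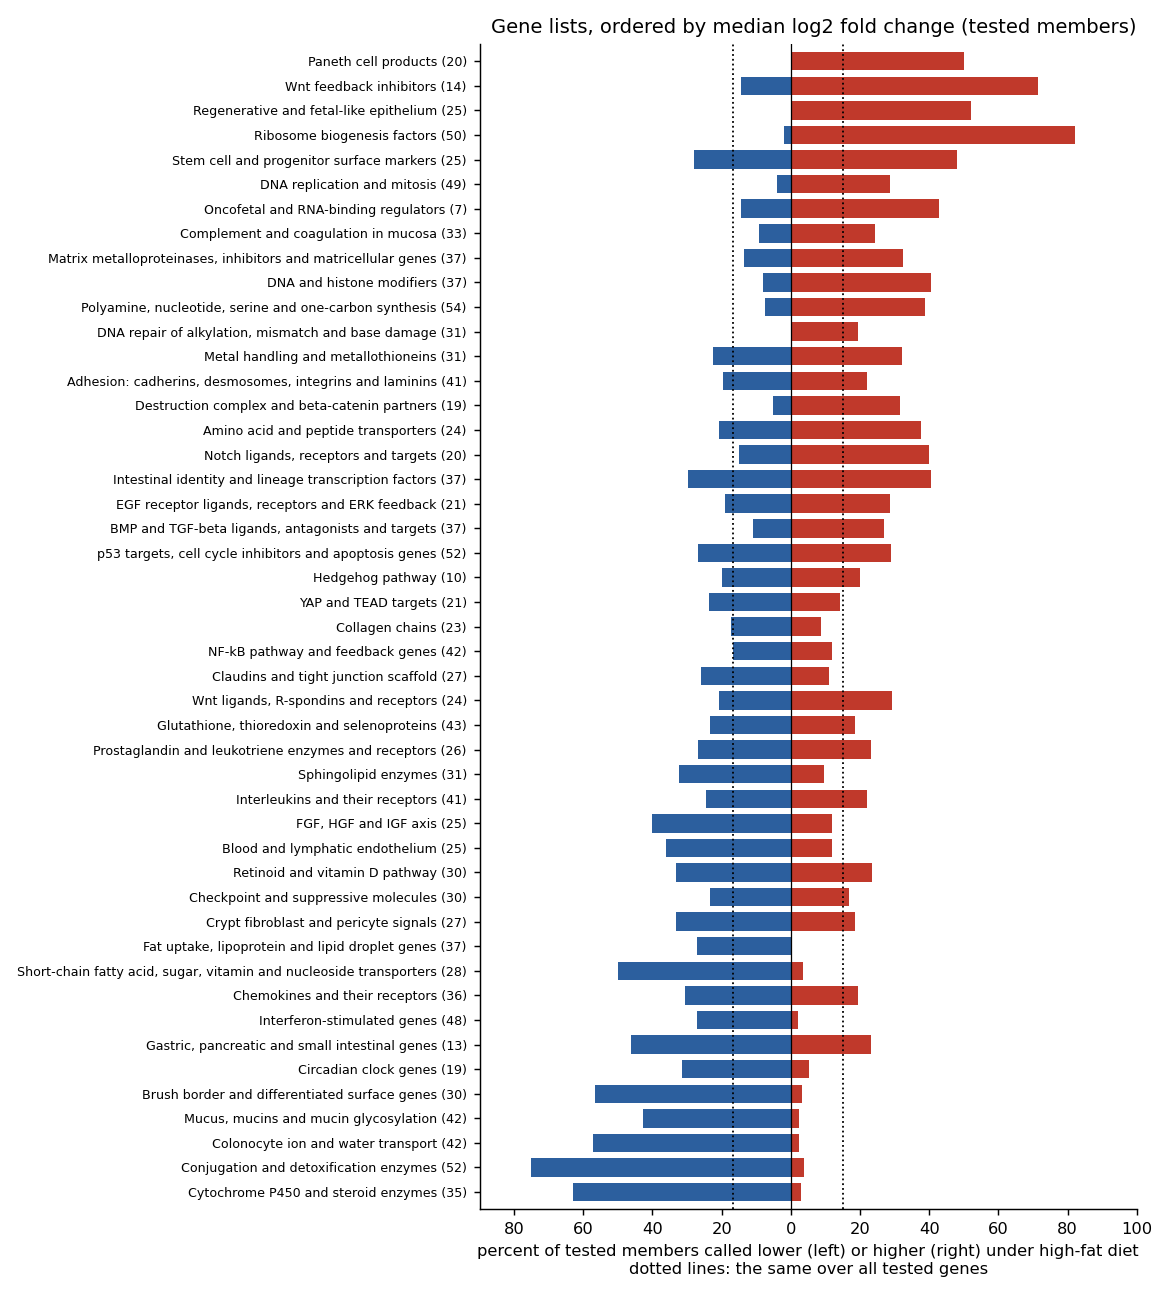
Percentage of tested members that rose (bars to the right of 0) and fell (bars to the left) in each list, ordered by median log2 fold change, with the number tested in brackets and dotted lines at the shares over all 14506 genes (15.1% higher and 16.6% lower). Ribosome biogenesis and Wnt feedback inhibitors lie on the higher side, and conjugating enzymes, P450 enzymes and ion transport on the lower side.

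Of polyamine, nucleotide, serine and one-carbon genes 21 of 54 tested members rose and 4 fell, with a median log2 fold change of 0.45, and 2 fell without high-fat diet replicate 3 or chow replicate 1. Pycr1, the last step of proline synthesis, gave 3.36, 11.2 and 4.55 CPM in the chow libraries and 169.6, 58.4 and 50.3 CPM in the high-fat diet libraries. Smox, which oxidises spermine, rose from 31.8 ± 13.9 to 111 ± 23.7 CPM, Phgdh, the first step of serine synthesis, from 15.5 ± 3.44 to 35.5 ± 9.82 CPM and Ctps, which makes CTP, from 35.4 ± 8.01 to 83.8 ± 20.6 CPM. Odc1, the first step of polyamine synthesis, stood at 76.5, 140.3 and 38.95 CPM in the chow libraries and 80.9, 126 and 65.4 CPM in the high-fat diet libraries, with overlapping groups, and did not pass the test. Of DNA replication and mitosis genes 14 of 49 rose and 2 fell. The G1 genes Ccnd1, Ccne1 and Cdk4 rose by 1.62 ± 0.19, 1.55 ± 0.34 and 1.58 ± 0.18, whereas the mitotic genes Mki67, Plk1, Aurka and Ccnb1 did not pass the test. Mki67 stood at 241, 148 and 107 CPM in the chow libraries and 160.0, 162 and 219 CPM in the high-fat diet libraries, with overlapping groups, and Ccnb1 passed by DESeq2 (adjusted p = 0.0346) and with library totals (0.0404). The other rises were mostly in subunits of the replicative helicase, such as Mcm2, Mcm4 and Mcm7 (by 1.11 ± 0.26, 0.92 ± 0.22 and 1.16 ± 0.21 on the log2 scale). Of p53 targets, cell cycle inhibitors and apoptosis genes 15 of 52 tested members rose and 14 fell. Cdkn2a, the locus of p16 and p19, gave 0.343, 0.641 and 0.399 CPM in the chow libraries and 29.5, 13.4 and 9.66 CPM in the high-fat diet libraries (log2 fold change 5.25 ± 1.12, adjusted p = 0.00913). Cdkn1c, p57, rose from 8.53 ± 4.83 to 101 ± 38.4 CPM. Cdkn1a and Mdm2, the best-known p53 targets, did not pass the test, and Trp53 itself rose by 1.09 ± 0.16. Of DNA repair genes 6 of 31 tested members rose and 0 fell, with Parp1 and Apex1 higher by 1.16 ± 0.23 and 1.42 ± 0.28. Mgmt, which reverses alkylation of guanine, stood at 4.59, 4.04 and 6.83 CPM in the chow libraries and 2.44, 1.15 and 3.43 CPM in the high-fat diet libraries and did not pass the test (adjusted p = 0.0625, against 0.0228 by DESeq2).

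Chromatin enzymes rose more often than they fell, as 15 of 37 tested members rose and 3 fell, with a median log2 fold change of 0.48. Ezh2, the methyltransferase of the Polycomb complex, gave 36.2, 35.3 and 25.2 CPM in the chow libraries and 73.5, 75.3 and 73.04 CPM in the high-fat diet libraries (log2 fold change 1.20 ± 0.16, adjusted p = 0.0012). Its relative Ezh1 fell from 83.7 ± 10.1 to 48.1 ± 2.78 CPM. The DNA methyltransferase Dnmt3b rose from 4.13 ± 0.824 to 10.96 ± 2.64 CPM, while Dnmt1 did not pass the test. Prmt1 and Hdac2 rose by 1.18 ± 0.23 and 1.13 ± 0.11. Clock genes fell where they changed, apart from Bhlhe40 (0.81 ± 0.17), since 1 of 19 tested members rose and 6 fell. Nr1d1, the repressor of the clock, gave 109.9, 74.4 and 212 CPM in the chow libraries and 15.2, 36.7 and 37.1 CPM in the high-fat diet libraries, and Arntl and Clock, the core activators, did not pass the test. The labels give no hour of sampling, and its part in these values was not tested.

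Of interleukins and receptors 9 of 41 tested members rose and 10 fell. Il11, a cytokine of stroma, gave 0.490, 0.528 and 0.974 CPM in the chow libraries and 63.7, 13.2 and 3.96 CPM in the high-fat diet libraries. Il1b, an inflammatory cytokine, gave 3.23, 3.24 and 2.64 CPM in the chow libraries and 39.7, 17.8 and 6.68 CPM in the high-fat diet libraries. Socs3, a feedback inhibitor of cytokine signalling, gave 19.1, 19.6 and 27.6 CPM in the chow libraries and 109.8, 134 and 59.05 CPM in the high-fat diet libraries. The high-fat diet libraries were above the chow libraries in all 3, and Il11 and Il1b were highest in replicate 1, as the mast cell sum was. Il17re, the receptor of IL-17C, fell from 24.4 ± 8.89 to 5.43 ± 2.14 CPM, Il22ra2, the decoy of IL-22, from 12.98 ± 2.95 to 3.43 ± 1.26 CPM, and Il2rb, of lymphocytes, from 13.9 ± 5.33 to 3.85 ± 0.938 CPM. Of chemokine genes 7 of 36 tested members rose and 11 fell. Among those that fell were chemokines of lymphoid tissue and plasma cells: Ccl21a went from 114 ± 48.2 to 14.4 ± 2.57 CPM, Ccl19 from 11.1 ± 6.62 to 0.904 ± 0.605 CPM and the epithelial Ccl28 from 157 ± 48.6 to 22.5 ± 5.86 CPM. Sums of T cell markers were 52.99 to 86.4 CPM in the high-fat diet libraries and 73.5 to 168 CPM in the chow libraries, and those of follicular B cells 180.2 to 358 CPM in the high-fat diet libraries and 496 to 758 CPM in the chow libraries. Beside these chemokines, 7 of 10 tested T cell markers fell and 1 rose. Of 12 tested follicular B cell markers 11 fell, a number that became 2 without high-fat diet replicate 2. It was 4 without high-fat diet replicate 3 or chow replicate 3. The part of lymphoid tissue in the sample was not tested.

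Among suppressive molecules 5 of 30 tested members rose and 7 fell, and 3 rose without chow replicate 2 or high-fat diet replicate 1 or 2. The butyrophilin-like genes Btnl1 and Btnl4, which tune gut gamma-delta T cells, went from 36.5 ± 16.7 to 0.896 ± 0.898 CPM and from 54.5 ± 14.3 to 7.78 ± 2.79 CPM, and Btnl2 fell as given above. Cd276 and Vtcn1, inhibitory ligands of the B7 family, rose from 10.6 ± 1.699 to 41.05 ± 11.5 CPM and from 2.59 ± 1.95 to 19.3 ± 9.05 CPM, while Cd274, which encodes PD-L1, stood at 21.8, 18.5 and 26.1 CPM in the chow libraries and 12.7, 12.8 and 6.76 CPM in the high-fat diet libraries and did not pass the test. Of interferon-stimulated genes 13 of 48 fell and 1 rose, numbers that rest on single libraries: 5 fell without high-fat diet replicate 1 or 3, 6 without chow replicate 1 and 7 without chow replicate 3. Usp18, which removes ISG15, was the member that rose (2.25 ± 0.40). Ifitm3 and Ifitm2, named above, are not in this list and rose by 3.24 ± 0.28 and 1.60 ± 0.15 on the log2 scale. Of complement and coagulation genes 8 of 33 tested members rose and 3 fell, where leaving out single chow or high-fat diet libraries gave 4 to 13 higher and 0 to 5 lower. Calls covered 33.3% of this list and 31.7% of all tested genes. Plat, the tissue plasminogen activator, rose from 11.8 ± 3.01 to 261 ± 183 CPM and Cfi, a complement inhibitor, from 0.0738 ± 0.128 to 24.2 ± 18.96 CPM. Of NF-kB pathway and feedback genes 5 of 42 tested members rose and 7 fell, with 3 higher members without high-fat diet replicate 1 or 2. The 28.6% of this list called is near the 31.7% of all tested genes. Nfkb1, Rela and Nfkbia did not pass the test.

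Of metalloproteinases, their inhibitors and matricellular genes 12 of 37 tested members rose and 5 fell. Mmp10, a stromelysin, gave 2.11, 1.98 and 0.738 CPM in the chow libraries and 314, 95.4 and 12.7 CPM in the high-fat diet libraries, with high-fat diet replicate 1 the highest. Mmp14, which activates other proteases at the membrane, gave 59.3, 55.3 and 49.2 CPM in the chow libraries and 217, 194 and 120.1 CPM in the high-fat diet libraries (log2 fold change 1.70 ± 0.23, adjusted p = 0.0012). The groups did not overlap in either. The inhibitor Timp1 rose from 3.31 ± 0.3597 to 17.4 ± 11.2 CPM, while Tnxb and Sparcl1, of resting matrix, fell from 118 ± 21.7 to 24.97 ± 13.2 CPM and from 451 ± 62.5 to 114 ± 77.6 CPM. Among collagen chains 2 of 23 tested members rose and 4 fell, and 2 fell without high-fat diet replicate 2 or chow replicate 1. Calls were made for 26.1% of these chains, below the 31.7% of all tested genes. The main fibrillar chains Col1a1, Col1a2 and Col3a1 did not pass the test, and Col9a2, a cartilage chain, rose from 4.54 ± 2.54 to 54.2 ± 29.5 CPM. Of crypt fibroblast and pericyte signals 5 of 27 tested members rose and 9 fell, with 5 lower without high-fat diet replicate 2 or chow replicate 1. Lum and Ogn, of fibroblasts, fell (log2 fold changes -2.44 ± 0.33 and -2.35 ± 0.38), and Foxl1, of the fibroblasts under the crypt, rose from 2.85 ± 0.4503 to 18.03 ± 5.97 CPM. Among ligands and receptors of axon guidance 4 of 24 tested members rose and 7 fell, with Sema3f going from 27.9 ± 4.27 to 172 ± 27.1 CPM and the receptor Nrp2 from 126 ± 11.9 to 38.4 ± 13.1 CPM. Of Eph receptors and ephrins 5 of 12 tested members rose and 3 fell, among which the crypt receptor Ephb3 rose by 0.87 ± 0.13 and its ligands Efnb1 and Efnb2 fell (log2 fold changes -0.81 ± 0.15 and -1.06 ± 0.14). The sum of fibroblast markers was 797 to 1346 CPM in the high-fat diet libraries and 984 to 1475 CPM in the chow libraries.

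The berberine libraries were not part of the comparison, but their values stand beside it. Of the genes higher on the high-fat diet than on chow, Wif1 was at 2.46, 4.21 and 3.46 CPM in the 3 berberine libraries, Stra6 at 37.6, 21.9 and 20.5 CPM, Nhp2 at 62.7, 44.6 and 46.1 CPM and Hes6 at 69.3, 67.8 and 74.99 CPM. Of the genes lower on the high-fat diet, Slc9a2 was at 179, 236 and 260.1 CPM, Sult1a1 at 174, 148 and 333 CPM and Cyp2c68 at 46.6, 63.3 and 64.03 CPM. No test was made of these values, and a comparison of berberine with either group would share its libraries with the one described here.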

How the data were processed

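RNA-seq libraries of mouse colonic tissue from 3 groups of 3 were deposited as 1 table. Its estimated counts per gene, deposited without normalization, amount to about 4 counts a fragment, and its FPKM values were computed by the authors with normalization for gene length and library size, per the file headers. Per the submitters' processing notes, which give no order, the tools were StringTie 1.3.4d, HISAT2 2.0.4, cutadapt 1.9, UMI-tools, edgeR and DESeq2; the parameters are not given in the sources used here. Deposited coordinates are GRCm38. No strand setting is stated, so overlapping and antisense genes cannot be told apart.

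Genes were kept whose FPKM averaged at least 1 over 9 libraries, and their estimated counts were used as deposited. They were fitted with edgeR 4.0.16 (R 4.3.3; TMM, robust glmQLFit on 3 groups, glmQLFTest) and p-values adjusted by Benjamini-Hochberg. SE is the absolute log2 fold change over the root of F. Where a gene was at 0 in a whole group, the fold is a bound against a floor of 3 fragments (12 counts) over that group. The fit was tested on simulated data in which 200 of 14506 genes were changed. It recovered 13% of the 2-fold and 72% of the 4-fold changes and called 9 unchanged genes. The simulation changed far fewer genes than the 4597 called in the data, and the adjusted p depends on that number. These shares therefore do not give the recovery in this comparison. A gene that did not pass the test may still differ. Alternatives were other scalings, filters of 0 and 5 FPKM, DESeq2 1.42.0, limma 3.58.1 on log2(FPKM + 1) and log2(FPKM + 0.1), 6 libraries alone, counts divided by 4, a replicate block and each library left out. Members and lists were chosen with earlier results of these data known. Genes named are the 10 with the largest rise and fall in mean FPKM, the 10 with the smallest p in each direction and the 10 highest and lowest log2 fold changes with at least 50 CPM in the higher group and no overlap, up to 4 called members a list and direction, marker genes, and list members whose role is described. Some genes that the rule names are not reported here. Lists are described by counts and medians with no set test. Depth limits genes of a few CPM, where 1 library holds few fragments.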

Additional observations from a re-analysis of the deposited data

How the results depend on the processing

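Against 4597 called genes, DESeq2 called 5585, the 6 libraries alone 3569, RLE scaling 4618, no filter 4659 of 34440 genes, counts divided by 4 4646, and limma 4839 with a pseudocount of 1 and 4840 with 0.1. No called gene changed direction under any alternative. With a mean of at least 5 FPKM, 8187 genes were tested and 2989 called, 1444 higher and 1545 lower, 1289 of them by at least 2-fold, since fewer genes were tested. With each library left out in turn, 3543 to 4305 genes were called, 1712 to 2085 higher and 1805 to 2225 lower, 2104 to 2402 by at least 2-fold, with 817 to 952 list members against 993. The groups share replicate numbers, and the deviations of same-numbered libraries from their group means correlated at -0.09, 0.13 and 0.16. So few libraries cannot decide whether the numbers pair them. With a replicate block 4319 genes were called, 2067 higher and 2252 lower. High-fat diet replicates 2 and 3, but not 1, correlated best with the chow library of the same number. For replicate 2 this was nearly a tie (0.1250, against 0.1244 with chow replicate 1). Upward calls made 59.9% of all with library totals and 61.0% with limma and a pseudocount of 1. Chosen after seeing the data, a fit without robust shrinkage called 4613 genes, and leaving out chow replicates 2 and 3 gave 1962, with 856 higher, 1106 lower, 1525 by at least 2-fold and 522 list members, since only 1 chow library, assumed to vary like the others, remained; 65 named genes then lost their call. Across the 325 named genes and the alternatives other than these 2, 6003 values stayed on the same side of the threshold, 62 called ones lost their call and 36 others gained one. Without a filter the calls of Car1, Ces1f, Cyp2c65, Muc2, Myh4, Psmb8 and Psmb9 were lost (adjusted p = 0.0505 to 0.208), with the block those of Cyp2c65, Muc2, Myh4, Psmb8 and Psmb9 (0.0629 to 0.114), and with the 6 libraries alone those of B4galt1, Muc2, Myh4 and Psmb9 (0.0598 to 0.116). At low levels the estimates were less precise: the median SE of the log2 fold change was 0.37 under 2 FPKM, where 25.4% of genes were called, and 0.18 between 10 and 50 FPKM, where 37% were, and depth as the cause was not tested.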
